A study of Mus musculus with 11 samples.

Results

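The genes described here are 34 mouse genes of the acute phase and of NF-kB and STAT3 driven inflammation. They were chosen by symbol: Il6, Il1a, Il1b, Il1rn, Il33, Tnf, Lif and Csf1 (cytokines), Osmr and Stat3 (a receptor chain and its transcription factor), Nfkbiz, Bcl3, Cebpb, Cebpd and Sbno2 (transcription regulators), Tnfaip3, Nfkbia and Socs3 (feedback inhibitors), Lcn2, Saa1, Saa2, Saa3, Orm1, Orm2, Hp, Cp and Ltf (acute phase and antimicrobial proteins), C3, C4b and Cfb (complement), Ptgs2 and Ptges (prostaglandin synthesis), and Icam1 and Vcam1 (adhesion). Each gene was followed on the brightest array probe that names it alone. All 34 had such a probe, among 20269 genes with one on the array, and 33 passed the filter on dim probes. The one that did not was Il1b.

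Otospheres are floating spheres that grow when cells of the cochlear sensory epithelium (CSE), the strip of hair cells and supporting cells in the inner ear, are dissociated and cultured in suspension. The study set otospheres against the CSE they came from and against embryonic stem cells (ESCs), using 1-colour arrays of Cy3-labelled RNA. The CSE samples (CSE1 to CSE3) were dissected from ICR mice 1 day old, with 20 cochleae pooled from 10 mice per preparation. The otosphere samples (OS1 to OS6, passage 1) came from the same strain and age. They were grown in DMEM-F12 with N2, B27, heparan sulfate, bFGF at 10 ng/ml and IGF1 at 50 ng/ml, 4 or 5 days before and 4 or 5 days after 1 passage, and the larger hollow spheres were removed with a strainer so that solid spheres were used. The ESC samples were the lines G4-2 (ES1) and D3 (ES2) at passage 13, kept off feeder cells in 10% serum with leukemia inhibitory factor (LIF) at 1000 U/ml, which itself signals through gp130 and STAT3. As models, each ESC line is 1 culture, each cochlear sample is a pool of animals, and the otospheres had been sorted by sphere type. The labels do not say whether replicates were separate dissections or cultures, so p-values measure only the spread between these samples.

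Cytokines such as IL-1 and TNF switch on NF-kB, which turns on genes of defence together with its own inhibitors Nfkbia (IκBα) and Tnfaip3 (A20). Cytokines of the IL-6 family (IL-6, LIF, oncostatin M) signal through gp130, together with receptor chains such as Osmr, to STAT3, which turns on Socs3, a brake on the same pathway. C/EBPβ and C/EBPδ, encoded by Cebpb and Cebpd, act with both pathways on the acute phase genes, whose secreted products the liver makes in bulk during inflammation and which many epithelia and stromal cells can also make.

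Between arrays, the median spot signal ran from 68 to 116 against a median local background of 32 to 38, 55.1% to 71.6% of spots were well above background, and no spot was saturated. OS1 and OS2 differed by no more than 1.09 times the spread between repeated spots of 1 probe, and OS4 and OS5 by no more than 0.473 times, against 1.64 or more for the next closest pair of arrays in a group, CSE1 and CSE3. Each pair was therefore averaged and counted as 1 sample (OS1-2 and OS4-5), which left 4 otosphere, 3 CSE and 2 ESC samples. The arrays lay on 2 slides scanned on different dates: ES1, OS1 to OS3, CSE1 and CSE2 on the first, and ES2, OS4 to OS6 and CSE3 on the second. All 8 epithelial markers were higher in otospheres than CSE, 5 of 8 hair cell markers and 6 of 8 supporting cell markers were lower, and 5 of 6 pluripotency markers were lower in otospheres than ESCs.

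For 27 of the 34 genes RefSeq gave a promoter window (build GRCm38.p6, 250 bases before to 50 bases after the start of transcription). Windows are shown to describe their sequence, and a link between sequence and the order of the otosphere samples was not tested. They were searched on both strands for the C/EBP letters TTGCNNAA, the STAT letters TTCNNNGAA and the kappa-B consensus. The C/EBP letters lay in the windows of 11 of the 27 genes (Lcn2, Saa1, Saa2, Saa3, Orm2, C3, Cp, Il6, Il33, Ptgs2 and Ltf), against 12.2% of all 27025 genes with a window. The kappa-B consensus lay in 7 (Il6, Tnfaip3, Nfkbia, Lif, Csf1, Bcl3 and Sbno2), against 9.55% of all genes. The STAT letters lay in 3 (Socs3, Icam1 and Sbno2), against 9.55%, and no match overlapped a match of another motif. A match only describes the letters and does not show that a factor binds. The stretches below lie upstream of the start, read 5′ to 3′ on the gene's strand, with the matched letters in capitals. The first 7 hold the C/EBP letters in acute phase genes, and the pair from Saa1 and Saa2 also shows how alike those neighbouring genes are.
Lcn2, chr2:32387923-32387980, minus strand, C/EBP: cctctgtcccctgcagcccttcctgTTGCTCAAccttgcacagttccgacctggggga
Saa3, chr7:46715743-46715800, minus strand, C/EBP: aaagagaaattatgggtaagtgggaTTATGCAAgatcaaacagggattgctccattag
Saa1, chr7:46743130-46743187, minus strand, C/EBP: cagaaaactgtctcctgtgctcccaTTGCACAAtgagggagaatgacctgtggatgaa
Saa2, chr7:46751625-46751682, plus strand, C/EBP: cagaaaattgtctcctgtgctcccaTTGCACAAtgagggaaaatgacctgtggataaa
Orm2, chr4:63362304-63362361, plus strand, C/EBP: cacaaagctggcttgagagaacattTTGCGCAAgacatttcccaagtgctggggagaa
C3, chr17:57228149-57228206, minus strand, C/EBP: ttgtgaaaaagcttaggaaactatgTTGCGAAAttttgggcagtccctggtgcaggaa
Ltf, chr9:111019192-111019249, plus strand, C/EBP: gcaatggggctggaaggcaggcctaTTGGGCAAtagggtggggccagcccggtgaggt
Ptgs2 is shown because it was the only one of these genes with OS6 as the highest otosphere sample, Csf1 and Lif as cytokines with the kappa-B consensus, and Socs3 as the STAT3 target with the STAT letters.
Ptgs2, chr1:150099937-150099994, plus strand, C/EBP: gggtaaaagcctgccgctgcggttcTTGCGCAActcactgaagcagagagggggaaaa
Csf1, chr3:107760589-107760648, minus strand, kappa-B: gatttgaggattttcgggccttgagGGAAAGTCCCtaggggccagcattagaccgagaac
Lif, chr11:4257365-4257424, plus strand, kappa-B: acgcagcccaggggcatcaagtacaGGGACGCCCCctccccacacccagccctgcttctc
Socs3, chr11:117969487-117969545, minus strand, STAT: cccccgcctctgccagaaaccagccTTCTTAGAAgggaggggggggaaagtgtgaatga

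In otospheres, 13 of the 33 measured genes were higher than in CSE: Lcn2, C3, Nfkbiz, Stat3, Osmr, Lif, Csf1, Ptgs2, Bcl3, Cebpb, Cebpd, Sbno2 and Ltf (limma, Benjamini-Hochberg adjusted p under 0.05). No gene of the 33 was lower at that threshold. Over all 18546 genes tested the call was made upward for 7.16% and downward for 10.2%. The median difference between otospheres and CSE over the 33 genes was 2.64 on the log2 scale, with 30 of 33 above 0, and over all genes it was -0.01. In 17 genes every otosphere sample lay above every CSE sample, as in 14.1% of all genes, and in Ptges alone every otosphere sample lay below. The 13 calls became 17 with slide as a block (Saa1, Saa3, Orm2 and C4b were added) and 22 within the first slide. Over all kept probes, upward calls numbered 2321 of 47997 in the main test and 2449 with slide as a block. Within the first slide they numbered 1534 of 47996. On the second slide CSE3 was the only CSE sample, so calls of otospheres against it are not counted. The difference from CSE was lower there than on the first slide in every gene but Ptgs2 (6.53 against 4.10). In bulk RNA, fewer cells of a type and less RNA per cell cannot be told apart.

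**Figure D1:**
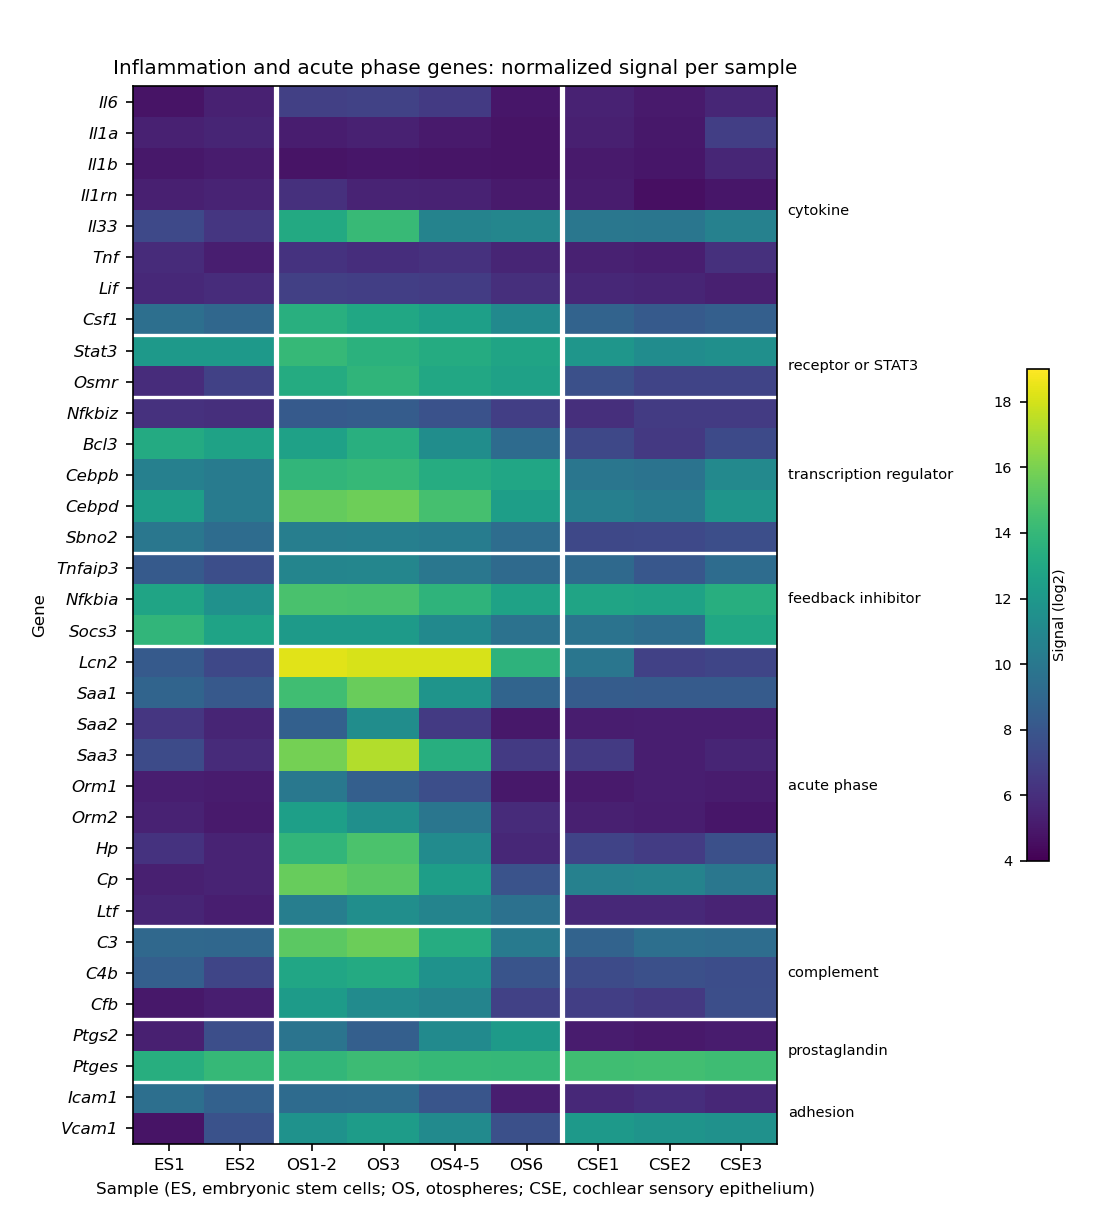
Normalized signal (log2, colour) of the 34 genes (rows, grouped by role) in the 9 samples (columns). Lcn2 reaches 18.32 in OS1-2 and 13.70 in OS6, and the column of OS6 is darker than those of the other otosphere samples for most acute phase and complement genes.

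Among the cytokines, Csf1, the growth factor of macrophages, had log2 signals of 13.44, 12.93, 12.48 and 11.14 in OS1-2, OS3, OS4-5 and OS6, against 8.79, 8.25 and 8.53 in CSE1 to CSE3 and 9.48 and 8.999 in ES1 and ES2. Every otosphere sample was above every other sample. The difference between otospheres and CSE was 3.97 (15.7-fold, limma adjusted p = 0.00117), and that between otospheres and ESCs was 3.26 (adjusted p = 0.00204). The other probes of Csf1 were dimmer and gave differences of 3.72 and 3.78 from CSE.

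Lif, an IL-6 family cytokine, was dim throughout, with log2 signals of 6.84, 6.78, 6.67 and 6.02 in the otosphere samples, 5.66, 5.57 and 5.34 in CSE, and 5.71 and 5.88 in ESCs. It was well above background on all 6 otosphere arrays, 2 of 3 CSE arrays and 1 of 2 ESC arrays. Otospheres were 2.07-fold higher than CSE (adjusted p = 0.0167) and 1.72-fold higher than ESCs (adjusted p = 0.0454), and the first call was lost without OS4-5 (adjusted p = 0.0532) or without CSE3 (adjusted p = 0.0734) and within the second slide (adjusted p = 0.143). The call against ESCs held without OS6 and was lost without any other single sample (adjusted p from 0.0590 to 0.183). The ESC medium contained LIF protein, which the array does not measure.

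Il33, an alarmin held in the nucleus of epithelial and stromal cells, had log2 signals of 13.12, 14.11, 10.73 and 10.89 in the otosphere samples and 9.94, 9.89 and 10.57 in CSE. OS4-5 and OS6 lay just above CSE3, the highest CSE sample. Its difference between otospheres and CSE was 2.08 (adjusted p = 0.15), but otospheres were 41.3-fold above the ESC signals of 7.34 and 6.35 (adjusted p = 0.00208). CSE was 9.74-fold above ESCs (adjusted p = 0.0287).

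Il6 spanned 2.07 log2 units among otospheres, with signals of 6.84, 6.95, 6.55 and 4.88 against 5.42, 5.07 and 5.62 in CSE, a difference of 0.94 (adjusted p = 0.302). Its probe was well above background on 5 of 6 otosphere arrays and on 1 of 3 CSE arrays, and OS6 lay below all CSE samples.

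Tnf, Il1rn, Il1a and Il1b were near the floor of the array. Tnf lay between 5.27 and 6.22 in all 9 samples and was well above background on 5 of 6 otosphere arrays (difference from CSE 0.38, adjusted p = 0.51). Il1rn, which encodes the IL-1 receptor antagonist, lay between 4.63 and 6.07 and was well above background on 2 of 6 otosphere arrays and on no CSE or ESC array (adjusted p = 0.155 between otospheres and CSE). Il1a was well above background on 1 array only, CSE3, at 6.80, where the other 8 samples lay between 4.76 and 5.53. Il1b lay between 4.80 and 5.63 and was well above background on no array.

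Osmr, the receptor chain that binds oncostatin M with gp130, spanned 1.24 log2 units among otospheres. Its log2 signals were 13.20, 13.82, 13.01 and 12.58 in the otosphere samples, 7.67, 7.08 and 7.06 in CSE, and 5.91 and 6.89 in ESCs. Every otosphere sample, OS6 included, was far above every CSE and ESC sample. The difference was 5.89 from CSE (59.1-fold, adjusted p = 4.58e-05) and 6.76 from ESCs (108-fold, adjusted p = 7.63e-06).

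Stat3 had log2 signals of 14.03, 13.61, 13.25 and 12.78 in the otosphere samples, against 11.89, 11.27 and 11.49 in CSE and 12.14 and 12.04 in ESCs, so the groups did not overlap. Otospheres were 3.65-fold higher than CSE (adjusted p = 0.00415) and 2.51-fold higher than ESCs (adjusted p = 0.0158). A second, dimmer probe gave a difference of 1.90 from CSE (adjusted p = 0.0259) and of 0.55 from ESCs (adjusted p = 0.48).

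All 5 transcription regulators were higher in otospheres than CSE. Cebpb had log2 signals of 13.87, 14.02, 13.27 and 12.90 in the otosphere samples, 9.90, 9.70 and 11.06 in CSE, and 10.55 and 10.23 in ESCs. Otospheres were 9.81-fold above CSE (adjusted p = 0.000988) and 8.72-fold above ESCs (adjusted p = 0.000786), with no overlap between otospheres and the other samples.

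Cebpd was more spread, with 15.47, 15.69, 14.55 and 12.39 in the otosphere samples, 10.46, 10.18 and 11.84 in CSE, and 12.38 and 10.24 in ESCs. OS6 lay level with ES1 and above every CSE sample. The difference from CSE was 3.70 (adjusted p = 0.025), and it passed the threshold within the first slide (5.26) but not within the second (1.63, adjusted p = 0.354). Leaving out any one of OS1-2, OS3, OS4-5, CSE1 or CSE2 took the adjusted p to between 0.0520 and 0.100.

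Bcl3, an IκB family protein that acts in the nucleus with NF-kB, set CSE apart from both cultured groups. Its log2 signals were 12.60, 13.48, 11.34 and 9.24 in the otosphere samples and 13.19 and 12.64 in ESCs, against 7.28, 6.47 and 7.39 in CSE. The lowest otosphere sample, OS6, was still above the highest CSE sample. Otospheres were 24.6-fold above CSE (adjusted p = 0.0092), CSE was 58.5-fold below ESCs (adjusted p = 0.00261), and the difference between otospheres and ESCs was -1.25 (adjusted p = 0.396).

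Sbno2, a STAT3-induced corepressor, was also lowest in CSE, with log2 signals of 10.44, 10.48, 10.32 and 9.36 in the otosphere samples, 9.95 and 9.30 in ESCs, and 7.27, 7.31 and 7.61 in CSE. Otospheres were 6.74-fold above CSE (adjusted p = 0.000743), and CSE was 4.68-fold below ESCs (adjusted p = 0.00174).

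Nfkbiz, which encodes the nuclear IκBζ, had 8.23, 8.36, 7.77 and 6.80 in the otosphere samples, 6.02, 6.59 and 6.61 in CSE, and 6.15 and 6.04 in ESCs. OS6 was the otosphere sample nearest to CSE, just above CSE3. The difference of 1.38 from CSE had an adjusted p of 0.042, and it held without OS6 and was lost without any other single sample (adjusted p from 0.0552 to 0.167).

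None of the 3 feedback inhibitors passed the threshold between otospheres and CSE. Tnfaip3 had log2 signals of 10.83, 10.87, 9.95 and 9.19 in the otosphere samples and 9.11, 8.05 and 9.30 in CSE, a difference of 1.39 (adjusted p = 0.103), and was 4.92-fold higher in otospheres than ESCs (adjusted p = 0.0107). Nfkbia was bright in every group, with 14.68, 14.63, 13.75 and 12.65 in the otosphere samples and 12.76, 12.62 and 13.39 in CSE, a difference of 1.00 (adjusted p = 0.316). In both genes OS6 lay within the range of CSE.

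Socs3 went another way. Its highest log2 signals were in ES1 and ES2 (13.90 and 12.68), and CSE was split, with 12.91 in CSE3 and 9.72 and 9.36 in CSE1 and CSE2. The otosphere samples, at 12.18, 12.19, 11.12 and 9.64, lay within that range. No comparison of Socs3 passed the threshold (adjusted p = 0.82 against CSE and 0.203 against ESCs), and its difference between otospheres and CSE was 2.65 within the first slide and -2.53 within the second.

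**Figure D2:**
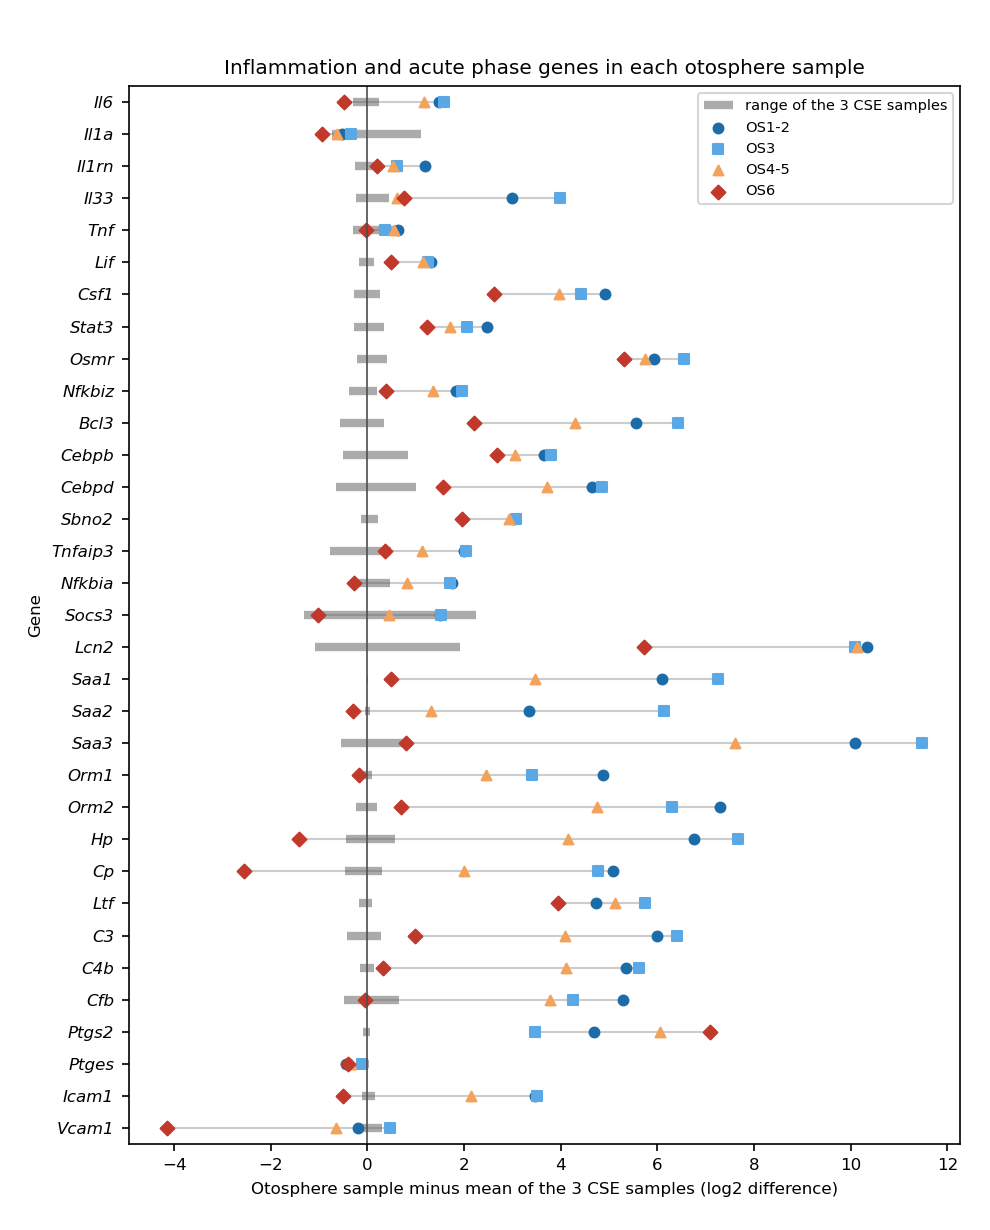
Log2 signal of each otosphere sample minus the mean of the 3 CSE samples, for the 33 genes past the filter (points by sample, grey bars for the range of the CSE samples). OS6 is the lowest otosphere sample in 30 of the 33 genes, and Ptgs2 is the gene in which it is the highest.

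Lcn2, lipocalin-2, which keeps iron from bacteria by binding their siderophores, had the largest difference of the 33 genes. Its log2 signals were 18.32, 18.07, 18.12 and 13.70 in the otosphere samples, 9.90, 6.89 and 7.16 in CSE, and 8.22 and 7.23 in ESCs. Every otosphere sample, OS6 included, was above every other sample. The difference was 9.07 from CSE (537-fold, adjusted p = 0.00181) and 9.32 from ESCs (640-fold, adjusted p = 0.000994). It was nearly as large within the second slide (8.75, adjusted p = 0.0622) as within the first (9.81).

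Ltf, lactoferrin, another iron-binding antimicrobial protein, had log2 signals of 10.39, 11.40, 10.78 and 9.59 in the otosphere samples, a span of 1.81. It lay at 5.73, 5.75 and 5.48 in CSE and 5.58 and 5.29 in ESCs, and was well above background on 2 of 3 CSE arrays and 1 of 2 ESC arrays. Otospheres were 29.5-fold above CSE (adjusted p = 0.000139) and 34.4-fold above ESCs (adjusted p = 5.05e-05).

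The serum amyloid A genes encode lipid-carrying acute phase proteins and varied widely between otosphere samples, Saa3 the most of the 33 genes. Saa3 had log2 signals of 15.88, 17.27, 13.38 and 6.57, a span of 10.69, against 6.58, 5.24 and 5.53 in CSE and 7.45 and 5.84 in ESCs. In OS6 it lay within the range of CSE, and its probe was well above background on all 6 otosphere arrays but on 1 CSE array. The difference from CSE was 7.49 with an adjusted p of 0.0602, and it fell to 4.45 within the second slide (adjusted p = 0.427) against 10.67 within the first.

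Saa1 had 14.42, 15.58, 11.79 and 8.81 in the otosphere samples against 8.35, 8.31 and 8.32 in CSE and 8.85 and 8.18 in ESCs, so that OS6 was close to CSE and the other otosphere samples far above it (difference 4.32, adjusted p = 0.0817). Saa2 had 8.57, 11.38, 6.57 and 4.95 against 5.19, 5.24 and 5.29 in CSE, where it was well above background on no array. Where a gene was well above background on no array of a group, that group's signals under a detection floor were raised to it. Such folds are given as lower bounds. In Saa2 the floor left the CSE mean unchanged, so the bound was the fitted fold itself, 6.17. The difference did not pass the threshold (adjusted p = 0.268), and OS6 lay below every CSE sample. The fold rests on OS3, without which the measured difference fell from 2.62 to 1.45 on the log2 scale. Saa1 and Saa2 are near-identical genes whose probes may share targets, as may Orm1 and Orm2, so these values are uncertain as to which copy gave them.

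Orm2, an orosomucoid that carries drugs and lipids in plasma, had log2 signals of 12.45, 11.46, 9.90 and 5.85 in the otosphere samples, with 5.35, 5.20 and 4.91 in CSE and 5.42 and 5.09 in ESCs. Neither CSE nor ESCs were well above background on any array. The otosphere mean was at least 24.9-fold above that of CSE, a difference that did not pass the threshold (adjusted p = 0.0503). It was at least 21.7-fold above that of ESCs (adjusted p = 0.0453). OS6 was the otosphere sample nearest to both groups. These bounds allow for the detection floor only, not for the spread between samples. The call against ESCs held without OS6 and was lost without any other single sample (adjusted p from 0.0618 to 0.166). Orm1 had 10.03, 8.57, 7.60 and 4.97 against 5.08, 5.24 and 5.13 in CSE (difference 2.64, adjusted p = 0.132).

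Hp, haptoglobin, the scavenger of free hemoglobin, had log2 signals of 13.86, 14.78, 11.26 and 5.69 in the otosphere samples, and OS6 was below CSE, at 6.996, 6.66 and 7.67. The difference from CSE was 4.29 (adjusted p = 0.21). Cp, ceruloplasmin, a copper-carrying ferroxidase, was also bright in CSE, with a mean of 10.40 ± 0.41 (SD, n = 3), and lay above it in OS1-2, OS3 and OS4-5 (15.50, 15.17 and 12.40) but below it in OS6 (7.85). Its difference from CSE was 2.32 (adjusted p = 0.493), while otospheres were at least 158-fold above ESCs (adjusted p = 0.0148), where no array was well above background.

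Complement was represented by the central component C3 and by C4b and Cfb, which feed the enzymes that cleave it. C3 had log2 signals of 15.19, 15.62, 13.30 and 10.19 in the otosphere samples, 8.78, 9.47 and 9.35 in CSE, and 9.05 and 8.99 in ESCs. Otospheres did not overlap with the other samples. The difference from CSE was 4.37 (adjusted p = 0.0379), it held without OS6 and was lost without any other single sample (adjusted p from 0.0525 to 0.136), and a second probe gave 6.38 (adjusted p = 0.0201).

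C4b, at 12.90, 13.18, 11.67 and 7.88 against 7.41, 7.69 and 7.56 in CSE, had a difference of 3.85 (adjusted p = 0.0632), and OS6 was just above the highest CSE sample. A near-identical neighbour of C4b may share its signal. Cfb, at 12.25, 11.22, 10.75 and 6.903 against 6.81, 6.47 and 7.61 in CSE, had a difference of 3.32 (adjusted p = 0.0911) and OS6 lay within the range of CSE. Cfb was at least 29.8-fold higher in otospheres than in ESCs (adjusted p = 0.012), where no array was well above background.

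Ptgs2, the inducible cyclooxygenase COX-2, ran against the other genes. Its log2 signals were 9.79, 8.56, 11.15 and 12.18 in the otosphere samples, so that OS6 was the highest and OS3 the lowest. It was well above background on no CSE array (5.13, 5.01 and 5.14) and on 1 of 2 ESC arrays (5.30 and 7.60). Otospheres were at least 38.4-fold above CSE (adjusted p = 0.00405), and their difference from ESCs was 3.97 (adjusted p = 0.0123).

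Ptges, a terminal prostaglandin E synthase, was bright and even, with 13.95, 14.27, 14.06 and 13.98 in the otosphere samples and 14.39, 14.43 and 14.37 in CSE. The difference of -0.33 from CSE had an adjusted p of 0.361. Its dimmer second probe gave the opposite sign, 1.93 (adjusted p = 0.0191), with 9.59, 10.02, 9.02 and 8.21 in the otosphere samples, so its direction depends on the probe. CSE was 1.58-fold above ESCs on the brightest probe (adjusted p = 0.0496, F-test adjusted p = 0.100), a difference of 0.66 that fell to 0.35 without ES1 (adjusted p = 0.3004). That call held without ES2 and was lost without any other single sample, and the second probe gave -0.63 (adjusted p = 0.403).

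The adhesion molecules that hold leukocytes differed from each other. Icam1 had log2 signals of 9.26, 9.30, 7.93 and 5.28 in the otosphere samples, 5.74, 5.95 and 5.68 in CSE, and 9.50 and 8.63 in ESCs. OS6 was below every CSE sample while the other otosphere samples were above them (difference 2.15, adjusted p = 0.178), and CSE was 9.66-fold below ESCs (adjusted p = 0.0428).

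Vcam1 was bright in CSE, at 12.14, 11.77 and 11.59, with 11.64, 12.30, 11.18 and 7.68 in the otosphere samples. The difference between otospheres and CSE was -1.13 (adjusted p = 0.669). Both cochlear groups were above the ESC signals of 4.78 and 7.75, otospheres 21.6-fold (adjusted p = 0.0252) and CSE 47.4-fold (adjusted p = 0.0111), and the gene was well above background on 1 of 2 ESC arrays. A dimmer probe gave 0.62 between otospheres and CSE (adjusted p = 0.683).

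**Figure D3:**
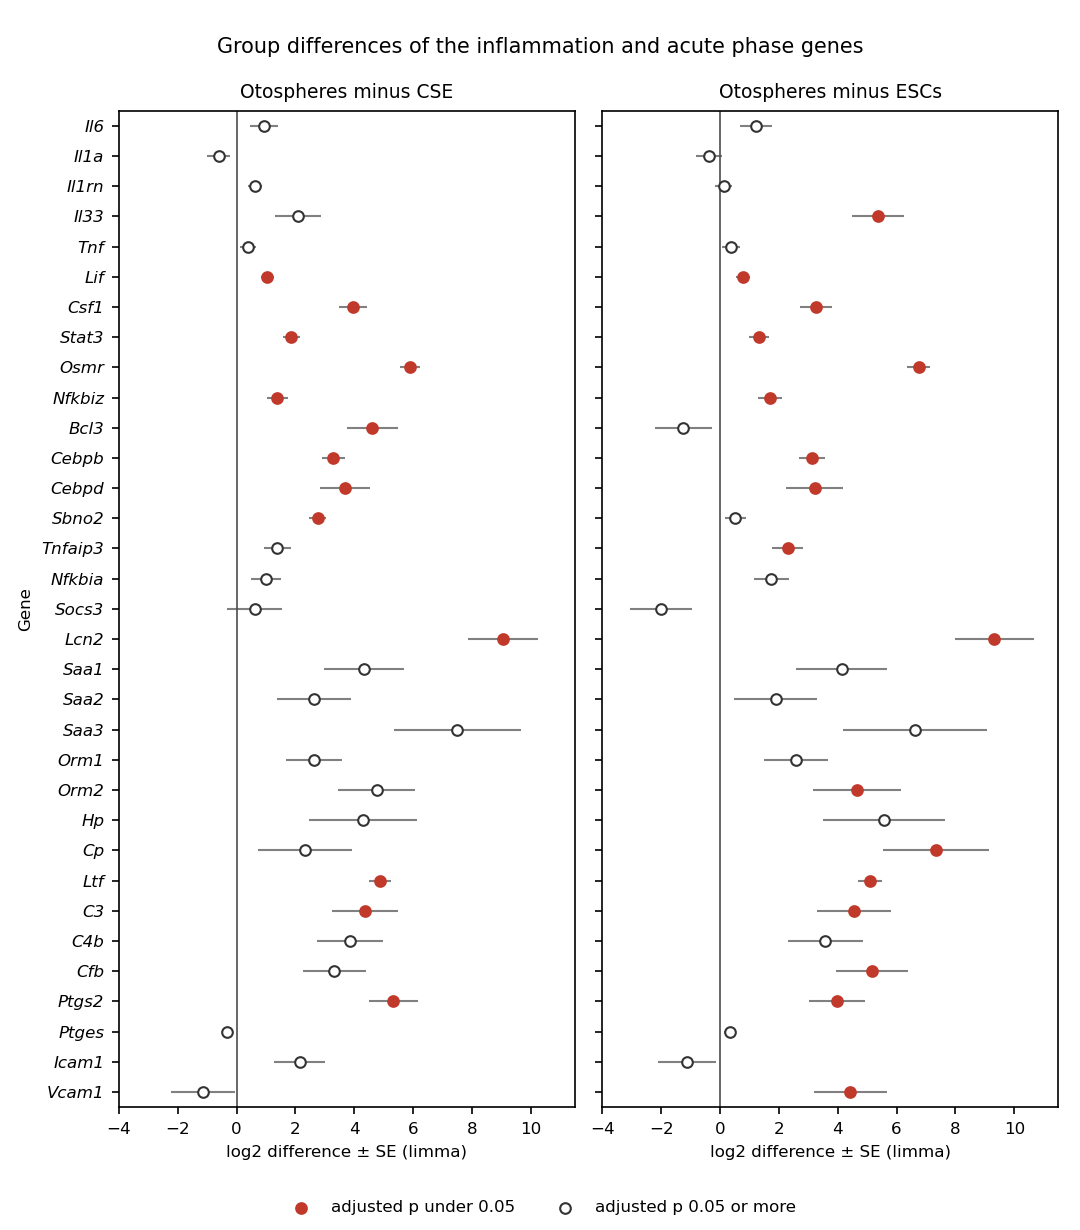
Log2 difference ± SE (limma) of the 33 genes between otospheres and CSE (left) and between otospheres and ESCs (right), filled where the adjusted p was under 0.05. Filled points number 13 on the left and 17 on the right, all above 0.

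Against ESCs, 17 of the 33 genes were higher in otospheres and 0 were lower (limma, adjusted p under 0.05). Of all genes, 18.4% were higher and 20.5% lower. These comparisons share the otosphere samples with those against CSE. Beside the genes given above, the 17 included Tnfaip3, Vcam1, Il33, Cp, Cfb and Orm2, none of which passed against CSE, and they did not include Bcl3 or Sbno2, whose ESC signals were near those of otospheres. The median difference over the 33 genes was 3.12, against -0.01 over all genes, and neither this median nor that against CSE changed with the bounded genes at their bound. Without ES1 or without ES2, 8 of the 17 calls were left. The calls of 6 genes (Lcn2, Il33, Osmr, Csf1, Cebpb and Ltf) held when any 1 sample was left out, and those of the other 11 were lost in 1 to 8 of 9 such omissions. In Vcam1 the difference fell from 4.43 to 2.95 without ES1 (adjusted p = 0.204), and in Cebpd from 3.22 to 2.14 without ES2 (adjusted p = 0.256).

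Between CSE and ESCs, 3 of the 33 genes were higher in CSE (Il33, Ptges and Vcam1, against 20.9% of all genes) and 3 were lower (Icam1, Bcl3 and Sbno2, against 20.1%). With the arrays scaled to their 75th percentile the split was 5 higher and 2 lower, and without ES1 it was 0 and 2. Only the calls of Bcl3 and Sbno2 held when any 1 of the 9 samples was left out. The median difference was -0.07. Over the 3 groups together the F-test called 21 of the 33, against 48.7% of all genes. Saa3 and C4b passed this test and no pairwise comparison (adjusted p = 0.0436 and 0.0433).

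The otosphere samples differed among themselves far more in these genes than the CSE samples did. The median span between the highest and the lowest otosphere sample was 3.29 log2 units over the 33 genes and 0.64 over all genes, while the median span of the CSE samples was 0.61 and 0.47. The span exceeded 2 log2 units in 21 of the 33 genes, against 7.61% of all genes. OS6 was the lowest otosphere sample in 30 of them, against 29.4% of all genes. The exceptions were Ptgs2, Il33, in which OS4-5 was slightly lower, and Ptges, in which OS1-2 was slightly lower.

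The median distance from the CSE mean over the 33 genes was 3.65 in OS1-2, 3.80 in OS3, 2.45 in OS4-5 and 0.39 in OS6. In each of OS1-2, OS3 and OS4-5, 29 genes lay above every CSE sample, and in OS6 17 did, where the share of all genes was 34.2%, 28.1%, 35.2% and 34.5%. In OS6, Lcn2, Osmr, Ltf, Ptgs2, Csf1, Cebpb, Bcl3 and Sbno2 were over 1 log2 unit above every CSE sample, whereas Saa2, Orm1, Hp, Cp, Il6, Il1a, Icam1, Vcam1 and Ptges were below every one. For Saa2, Orm1, Il6 and Il1a this order lies near the floor of the array. Saa2 was well above background on 0 CSE arrays, Orm1 and Il6 on 1 of 3, and Il1a on 0 otosphere arrays. Without OS6, 24 of the 33 genes passed the threshold between otospheres and CSE, the 13 and also Saa1, Saa3, Orm1, Orm2, C4b, Cfb, Hp, Cp, Il6, Tnfaip3 and Icam1. Over all 47997 kept probes, upward calls went from 2321 with OS6 to 1965 without it. The median signal of OS6 (76.5) and its share of spots well above background (61.5%) lay within the range of the other arrays. It had the most spots flagged as outliers, 184 against 121 to 170 on the others. The part of array quality in its values was not tested.

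In 28 of the 33 genes both otosphere samples of the first slide (OS1-2 and OS3) were above both of the second (OS4-5 and OS6), as in 21.7% of all genes, and Ptgs2 alone was the other way round. The difference between the slides in otospheres had a median of -1.80 over the 33 genes, against 0.07 over all genes, 0.07 for the same genes in CSE and -0.33 in ESCs. With 2 otosphere samples on each slide, 0 genes passed the adjusted threshold (limma, lowest adjusted p = 0.115, Il33) and 21 of the 33 had an unadjusted p under 0.05, against 21.7% of all genes. Each otosphere sample was on 1 slide only, so a difference between preparations and one between slides cannot be told apart.

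Markers of cells that could carry an inflammatory program were measured beside these genes. Of 13 macrophage markers, 10 were lower in otospheres than CSE and 0 higher, with a median difference of -2.62. The log2 of their summed signal was 12.85, 13.91, 13.09 and 14.42 in OS1-2, OS3, OS4-5 and OS6, so it was highest in OS6. In CSE1 to CSE3 it was 13.86, 15.09 and 14.20, and Itgam and Csf1r were the brightest. The sum follows the brightest genes. The median distance of the 13 markers from the CSE mean was -2.80, -2.44, -2.60 and -3.10 in the same order of otosphere samples, so by this measure OS6 was lowest. Mrc1, a macrophage receptor well above background on no otosphere array, was at least 17.8-fold higher in CSE (adjusted p = 9.69e-05), Cx3cr1 lay between 5.27 and 5.58 in otospheres, and OS6 was the lowest otosphere sample in 6 of the 13. Of 9 neutrophil markers none was called in either direction against CSE, and their summed signal was 11.24 to 12.90 in otospheres and 10.97 to 11.28 in CSE. OS6 was the lowest otosphere sample in 5 of the 9. Camp, an antimicrobial peptide, had the order of the genes described here, at 12.51, 12.21, 10.77 and 7.59 in the otosphere samples and 7.52, 7.52 and 7.72 in CSE (adjusted p = 0.087), and the granulocyte gene S100a9 was also lowest in OS6 (7.89, 6.75, 9.98 and 5.28). Of the granule genes, Mpo and Ngp did not exceed 5.96 in any otosphere sample, Mmp8 was at 6.79, 7.79, 5.27 and 5.13, and Elane was bright in every group (10.24, 9.12, 9.82 and 10.95 in the otosphere samples against 10.22, 8.86 and 10.39 in CSE) and highest in OS6. Of 8 hepatocyte markers, Alb and Apoa1 were well above background on no array, and 2 of the other 6 were lower in otospheres than CSE. The summed signal was 8.80 to 9.10 in otospheres and 11.83 to 12.40 in CSE. The median difference of those 6 from CSE was only -0.10, and 4 of the 8 were well above background on no CSE array.

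Most fibroblast and mesenchyme markers were also lower in OS6 and on the second slide. OS6 was the lowest in 7 of 10, and 8 of 10 were above in both samples of the first slide. The median distance of the 10 from the CSE mean was -0.52 in OS1-2, 0.60 in OS3, -2.27 in OS4-5 and -4.76 in OS6. Col3a1, a fibrillar collagen, had log2 signals of 13.96, 15.59, 11.82 and 6.51 in the otosphere samples, and Col1a2 had 15.17, 15.89, 13.30 and 8.61. The proteoglycan genes Dcn (15.78, 16.93, 15.31 and 15.51) and Lum (14.90, 14.39, 15.24 and 15.05) showed no such drop, Thy1 was higher on the second slide (11.64, 11.10, 13.26 and 12.76), and the summed signal ran from 16.43 to 18.05, against 17.58 to 18.21 in CSE and 12.01 to 12.52 in ESCs. Epithelial and hair cell markers ran the other way. The median distance from the CSE mean was 2.62, 1.81, 3.39 and 3.62 for the 8 epithelial markers and -2.78, -3.32, -1.55 and -0.88 for the 8 hair cell markers, in the order OS1-2, OS3, OS4-5 and OS6, and OS6 was the lowest otosphere sample in 0 of 8 of each. The part of these cell types in the spread of the inflammation genes was not tested.

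**Figure D4:**
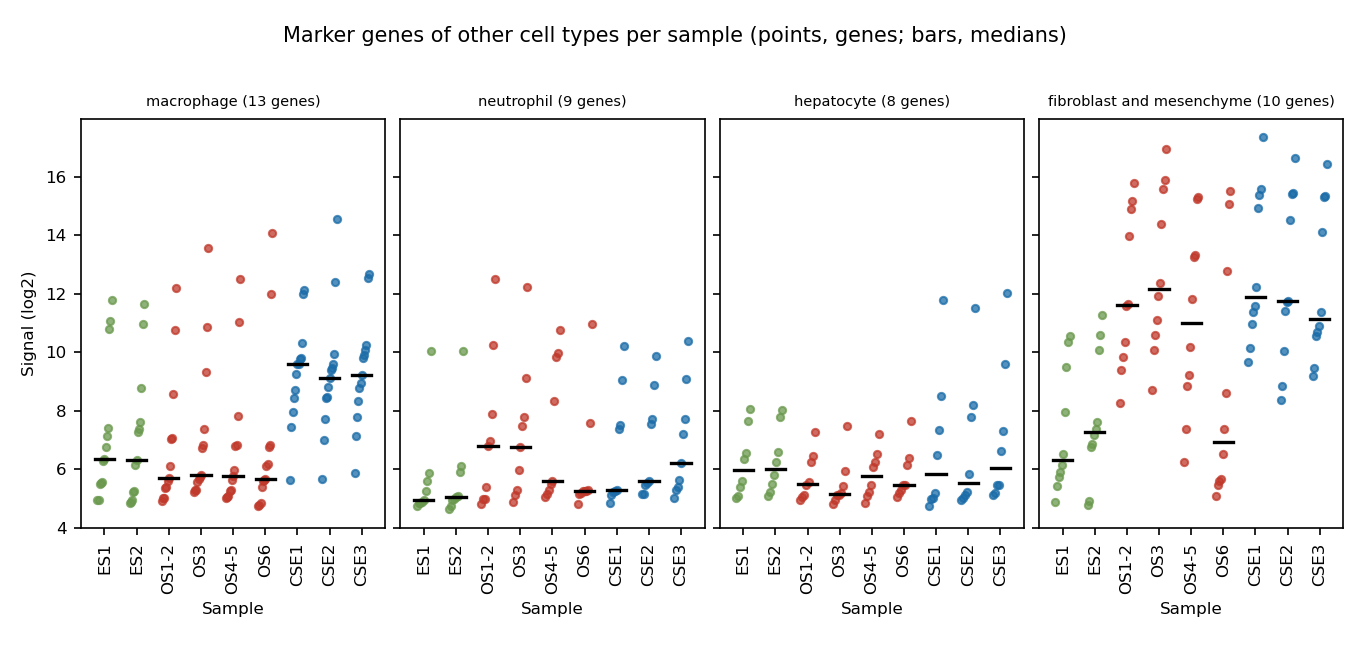
Log2 signal of each marker gene (points) and the median (bars) in the 9 samples for macrophage, neutrophil, hepatocyte, and fibroblast and mesenchyme lists. The macrophage medians are lower in every otosphere sample than in CSE, and the fibroblast median is lowest among otospheres in OS6.

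The rest of the pathways was read from lists beside the 34 genes. Of 29 genes of NF-kB and of IL-1, TNF and Toll-like receptor signalling, 14 were higher in otospheres than CSE and 0 lower, with a median difference of 1.24. The largest were Relb (2.52, adjusted p = 0.00134), Nfkb2 (2.29, adjusted p = 0.00146), both subunits of NF-kB, the kinase gene Map3k8 (2.36, adjusted p = 0.00152) and the lipopolysaccharide receptor Tlr4 (2.13, adjusted p = 0.00193). Their median lay 0.72 above the CSE mean in OS6 and 1.36 to 1.47 above it in the other otosphere samples. OS6 was the lowest otosphere sample in 14 of the 29, and both samples of the first slide were above both of the second in 14. Tlr4 was 8.98, 8.35, 9.17 and 9.06 in the otosphere samples, whereas Tnfaip2, a TNF-induced gene named here after its values were seen, was 11.65, 11.82, 9.40 and 6.80.

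Of 21 genes of gp130 and STAT signalling, 3 were higher than in CSE (Il6ra 2.38, adjusted p = 0.00167, Il10rb 1.37, adjusted p = 0.000546, and Il11 1.13, adjusted p = 0.0247) and Il11ra1 was lower (-0.99, adjusted p = 0.042). Their median difference was 0.40. Osm, the ligand of Osmr, lay between 5.39 and 5.94 in the otosphere samples and between 5.56 and 6.07 in CSE. Of 26 other acute phase plasma protein genes past the filter, 6 were higher and 0 lower, with a median of 1.44. The largest were the lipopolysaccharide co-receptor Cd14 (14.32, 12.92, 12.54 and 10.31 in the otosphere samples against 7.31, 6.42 and 7.34 in CSE, adjusted p = 0.00272), the metallothioneins Mt1 (4.09, adjusted p = 0.00156) and Mt2 (3.97, adjusted p = 0.00935), and the protease inhibitor Serpina3n, at least 14.9-fold above CSE (adjusted p = 0.0112). OS6 was the lowest otosphere sample in 20 of these 26 as well.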

How the data were processed

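RNA of 11 samples (6 otosphere, 3 CSE, 2 ESC, grouped by their labels) was hybridized to 1-colour Agilent mouse arrays, with 50 or 100 ng of RNA per labelling. The authors deposited scanner files made with Feature Extraction 10.7.3.1, which hold linear signal and background intensity per spot, and a table of log2 values that they background-corrected and quantile-normalized with limma and filtered on dim probes. From the scanner files, median signal and background were corrected with normexp (offset 16), put on a log2 scale and quantile-normalized (limma 3.58.1, R 4.3.3). Outlier spots were left out and spots of a probe averaged. A probe was kept where, on 2 or more arrays, it exceeded the 95th percentile of the 308 negative controls by 10% (47997 of 55681 probes). Genes were named through RefSeq accessions (26762 probes matched 1 symbol, 28919 none), and the probe with the highest mean of the group means stood for a gene. The main test fitted 3 group means with limma and eBayes, with Benjamini-Hochberg adjustment over all kept probes, and was tested on simulated data. A second model gave each group a mean on each slide. The number of arrays limits the precision. A bound uses, per array, the higher of the probe's signal and the lowest signal of a probe well above background. Every gene on the list was accounted for, with values per sample where it passed the threshold against CSE, spanned over 2 log2 units in otospheres or was a counterexample. At most 4 genes were named from any pathway list, apart from Tnfaip2 and Osm, which were named beyond that limit. Marker genes at background were named after their values were seen. The members, the lists and the merging of near-identical arrays were chosen with earlier results of these data known. Alternatives changed the offset, the scaling, the filter, the probe rule, the merging, the samples, the slide, the weights and the test.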

Additional observations from a re-analysis of the deposited data

Results flagged for a closer look

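In Lcn2, OS6 (13.70) lay far from the other otosphere samples, the nearest of which was at 18.07, and the gap made up 0.947 of the group's range. In Sbno2, OS6 (9.36) lay below the nearest otosphere sample, at 10.32, with a gap of 0.859 of the range. Both values exceeded the limit for a single sample standing apart from 3 others. All 33 genes were examined in this way, and chance gives such a gap in about 1 of 20 groups.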

How the results depend on the processing

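The count of genes higher in otospheres than CSE (13) stayed within 1.5 times under other offsets, the deposited log2 table, both filters, the 75th percentile scaling, the gene median, array weights (18) and slide as a block (17). It became 20 with every array as a separate sample, 22 within the first slide and 6 within the second, where 1 gene, Il1a, was lower. Leaving out 1 sample at a time gave 9 to 24, the highest without OS6. The count higher than ESCs (17) became 10 within the second slide, where Socs3 was lower (1 gene), and 8 to 25 without 1 sample (8 without ES1 or ES2). No gene was lower than CSE or ESCs without any 1 sample (0 to 0). For CSE against ESCs, 3 genes higher became 5 with the 75th percentile scaling, 1 with array weights and 0 to 4 without 1 sample (0 without ES1, 1 without any CSE sample), and 3 lower became 1 within the second slide (2 to 3 without 1 sample). The F-test count of 21 became 11 without moderation and 15 to 27 without 1 sample. The slide difference in otospheres passed for 0 genes, and for 9 with every array separate, where 4216 of all 47997 probes passed. It passed for 0 genes without any 1 ESC or CSE sample. Leaving out an otosphere sample left 1 on a slide, so no count is given for it. Samples sharing a replicate number did not deviate together (correlations from -0.39 to 0.36). With every array separate and the replicate block, 27 genes were higher than CSE and 5 higher in CSE than ESCs, against 20 and 3 with the arrays separate and no block. Under the 75th percentile scaling the median of all probes was -0.28 for otospheres and -0.25 for CSE against ESCs (quantile scaling: -0.03 and -0.06), and that scaling turned Ptges between CSE and ESCs to -0.36 (adjusted p = 0.443). Of 36 called differences, 10 passed under all 23 alternatives: Osmr, Cebpb and Ltf against both groups, Sbno2 against CSE, Lcn2 and Il33 against ESCs, and Bcl3 between CSE and ESCs.

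In the deposited table, probes spotted 10 times stood at a median 0.0994 of their scanner log2 value (372 probes) and those spotted 2 times at 0.498 (29 probes), against 0.976 for single spots. Stat3, Csf1 and Ptgs2, spotted 10 times, had differences from CSE of 0.19, 0.40 and 0.63 there and lost their calls. With those rows multiplied back by the number of spots, an alternative chosen after seeing the data, 15 genes were higher than CSE and 17 higher than ESCs.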
